A study of Mus musculus with 3 samples.

Results

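CELF1 binding sites in cultured C2C12 mouse myoblasts were compared with those in the adult mouse heart. The comparison took every CLIP cluster of these 2 libraries, 5115 in C2C12 and 42263 in heart, or 47378 of the 72222 clusters of the series, and assigned each cluster to a gene by the Entrez identifier that the cluster list gives. A CLIP cluster is a short stretch of RNA in which reads fixed to the protein piled up beyond the number predicted from how long the gene is and how strongly it is expressed. A gene with at least 1 cluster was called bound, which gave 7390 bound genes in either library out of 8037 in the series. In genes bound in both libraries, clusters shared position when they overlapped by at least 1 bp on the same strand.

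The heart library came from ventricle of 16-week-old C57/BL6 mice, and the other library from C2C12, an established line of mouse muscle precursor cells that divide in culture and can fuse into myotubes. The labels name no transgene or treatment for either sample, and endogenous CELF1 was crosslinked to RNA in each by UV light at 254 nm and pulled down with the monoclonal antibody 3B1. The heart was ground to powder and irradiated in 3 rounds of 400 mJ/cm2, and the sources used here do not say how many mice it represents. C2C12 stands for myoblasts as 1 cell line, whereas the ventricle holds cardiomyocytes together with endothelial, stromal and immune cells. Each group was 1 library, so no difference between them has a replicate check and none was tested. Percentages are followed by exact Clopper-Pearson 95% intervals, which cover counting error only, and clusters of the same gene are not independent of each other.

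CELF1, also called CUGBP1, is an RNA-binding protein of the CELF family that recognises UGU-containing and GU-rich RNA. In the nucleus it binds introns near alternative exons and influences their splicing, and in the cytoplasm it binds 3' UTRs and promotes deadenylation and decay or alters translation of the message. CELF1 levels fall as the heart and skeletal muscle mature, and its activity is raised in myotonic dystrophy, where it acts against the MBNL splicing factors.

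The sequences that carry the comparison are shown as windows of 30 nt in RNA letters, 5' to 3', read from the NCBIM37 genome (mm9) on the strand of the gene, with every UGU in capitals. The first set holds the centre of the widest stretch that C2C12 and heart clusters had in common in each of 5 genes with many shared positions. The window for Ext1 (chr15:53127889-53127918, minus strand) lies in an intron. Those for Celf2 (chr2:6463622-6463651, minus), Nucks1 (chr1:133831958-133831987, plus), Prkar1a (chr11:109529988-109530017, plus) and Lamp2 (chrX:35773802-35773831, minus) lie in 3' UTRs.
Ext1: ucUGUaucUGUaUGUggacagagcagagag
Celf2: UGUauuUGUGUuuuUGUgcUGUgggaauug
Nucks1: ugcgUGUuUGUaaaUGUcuggcauuuaaac
Prkar1a: auUGUuuuuUGUuUGUGUGUGUGUGUuuaa
Lamp2: gguacuuuUGUauucaguucUGUacucaga
These windows held between 2 and 8 UGU each, with the run of overlapping UGUGU in Prkar1a at the upper end. The shared stretches they come from were 60 nt wide in Ext1, 75 nt in Celf2, 111 nt in Nucks1, 100 nt in Prkar1a and 72 nt in Lamp2.

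The second set comes from the widest C2C12 cluster of genes in which no cluster was shared, and of genes with no heart cluster at all, so that the letters at myoblast sites can be set beside the shared ones. All of them lie in introns. Hmga2 (chr10:119884197-119884226, minus) and Nr6a1 (chr2:38740542-38740571, minus) were bound in both libraries at different positions. Diaph3 (chr14:87302231-87302260, minus), Bnc2 (chr4:83964837-83964866, minus) and Glis3 (chr19:28604952-28604981, minus) were bound in C2C12 alone.
Hmga2: uccgugcuccucUGUgguuuucuccgugcu
Nr6a1: aaugauagucUGUcUGUcccucuuuccUGU
Diaph3: auuaaaUGUgaauUGUuUGUuUGUuUGUuu
Bnc2: uauuucuucuuggaggaagagugcagagaa
Glis3: aguaaaUGUucagguuUGUGUuUGUuUGUu
Between 0 and 5 UGU fell in these windows, and the Bnc2 window held none although its cluster of 52 nt held 4.

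Most genes bound in myoblasts were also bound in heart. There were 2221 genes with clusters in both libraries, 30.1% of the 7390 (29.0% to 31.1%), 533 in C2C12 alone (7.21%, interval 6.63% to 7.83%) and 4636 in heart alone (62.7%, interval 61.6% to 63.8%). The genes bound in both made up 80.6% (79.1% to 82.1%) of the 2754 genes of C2C12 and 32.4% (31.3% to 33.5%) of the 6857 genes of heart. The heart list was the longer by far, and the numbers depended on that. Heart was therefore thinned at random to the 5115 clusters of C2C12, without regard to cluster strength. An expected 1185 genes were then bound in both, 1569 in C2C12 alone and 1620 in heart alone. The genes in both were then 43.0% of those of C2C12 and 42.2% of those of the thinned heart. The paper gives the same rounded total of uniquely mapped reads for the C2C12 and heart libraries, after identical reads were collapsed. The cluster lists give no read numbers, so the reads behind each cluster are unknown. Cluster number is not sequencing depth, and the cause of the longer heart list was not tested. A gene without a cluster can be bound or expressed below what the cluster calling could reach.

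Genes bound in both were the longer genes with the more clusters. Their median gene length was 56327 nt, against 23957 nt for genes of C2C12 alone and 30788 nt for genes of heart alone, and their median 3' UTR lengths were 1820 nt, 994 nt and 1304 nt in that order. A gene bound in both had a median of 1 C2C12 and 6 heart clusters, whereas genes of heart alone had a median of 3. Of the 1654 genes with 1 C2C12 cluster, 73.5% (71.3% to 75.6%) also had a heart cluster, and of the 225 genes with 3, 96.0% (92.5% to 98.2%) did. In the other direction the share climbed from 15.6% (13.9% to 17.4%) of genes with 1 heart cluster to 62.4% (57.2% to 67.4%) of the 362 genes with 20 or more. Gene length moved with these groups, from a median of 21341 nt for genes with 1 heart cluster to 191317 nt for those with 20 or more, and its part in the result was not tested.

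**Figure D1:**
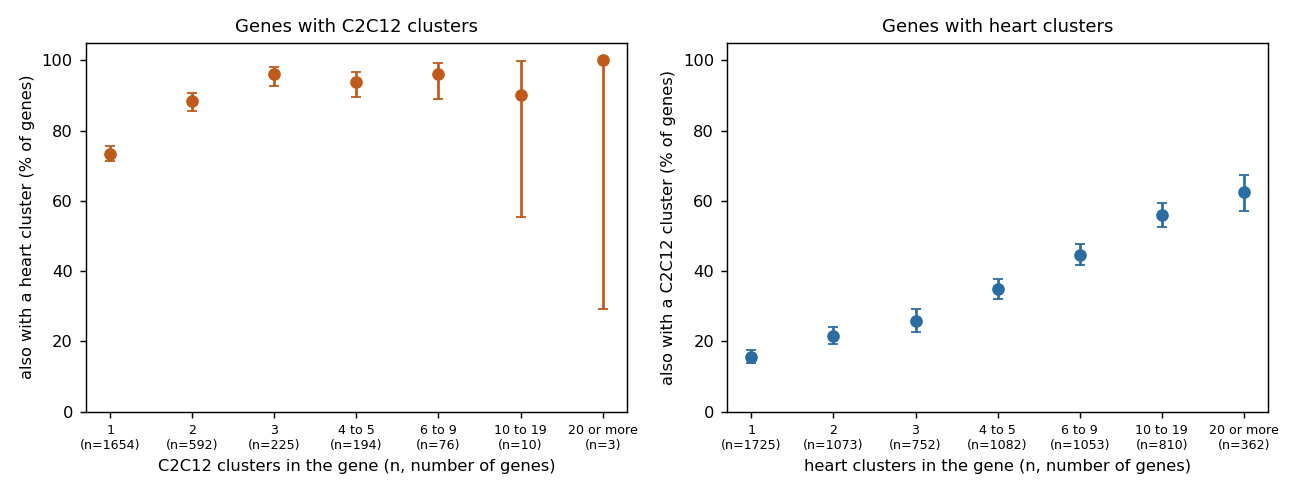
Percent of genes with clusters in C2C12 (left) or in heart (right) that also had at least 1 cluster in the other library, by the number of clusters in the gene, with exact 95% intervals as bars. The share starts at 73.5% for genes with 1 C2C12 cluster and at 15.6% for genes with 1 heart cluster, and reaches 62.4% for genes with 20 or more heart clusters.

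Sharing a gene was not the same as sharing a site. Of the 4428 C2C12 clusters in genes bound in both, 1733 (39.1%, interval 37.7% to 40.6%) shared position with a heart cluster. Of the 20246 heart clusters in these genes, 1769 (8.74%, interval 8.35% to 9.13%) shared position with a C2C12 cluster. At least 1 shared position was found in 1131 of the 2221 genes (50.9%), and in 566 genes (25.5%) every C2C12 cluster was shared. In the 1215 genes with 1 C2C12 cluster that cluster was shared in 35.6% (32.9% to 38.3%), and among the 85 genes with 6 or more C2C12 clusters 88.2% (79.4% to 94.2%) had a shared position, with a median of 17 heart clusters. With heart thinned at random to 5115 clusters, an expected 8.30% of C2C12 clusters shared position, so the level of 39.1% belongs to the full heart list. Such thinning removes shared and unshared heart clusters alike. An overlap of at least 50% of both clusters gave 21.3% of C2C12 and 4.66% of heart clusters, and clusters at least 50 nt wide, a limit chosen after seeing the data, gave 65.4% of C2C12 clusters.

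Shared positions were more frequent in 3' UTRs than in introns or coding exons. C2C12 clusters in 3' UTRs shared position in 1028 of 1542 cases (66.7%, interval 64.3% to 69.0%), those in introns in 621 of 2660 (23.3%, interval 21.7% to 25.0%) and those in coding exons in 32 of 144 (22.2%, interval 15.7% to 29.9%). When at least 50% of each cluster had to overlap, the shares were 33.3% for 3' UTR and 14.3% for intron clusters, and with heart thinned to 5115 clusters they were an expected 15.3% and 4.59%. The few clusters in 5' UTRs were shared in 8 of 10 cases (44.4% to 97.5%). From the heart side the shares were 15.7% (14.9% to 16.6%) of 6744 clusters in 3' UTRs and 5.26% (4.87% to 5.68%) of 11897 in introns. These shares count the same overlapping pairs, so the heart side is not a second check of the order. The intervals for 3' UTR and intron did not overlap on either side, and they cover counting error only. Heart clusters covered 9.31% of the 3' UTR bases of these genes and 0.338% of their intron bases, and the part of this density in the result was not tested. When C2C12 clusters were not shared, the nearest heart cluster of the same gene lay a median of 251 nt away for 3' UTR clusters and 4655 nt away for intron clusters. Within 1000 nt, a heart cluster was found for 80.0% of the 514 unshared 3' UTR clusters and for 22.3% of the 2039 unshared intron clusters.

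**Figure D2:**
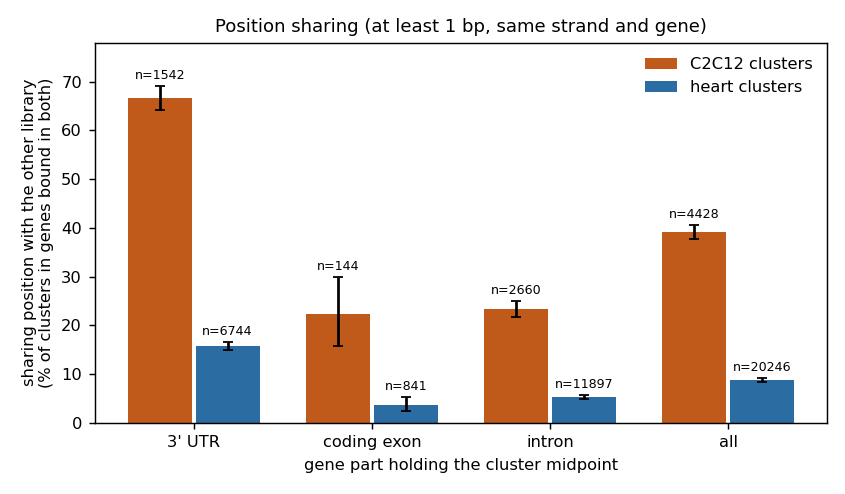
Percent of clusters in genes bound in both libraries that shared at least 1 bp with a cluster of the other library, for C2C12 and heart clusters by the gene part that held the cluster midpoint, with exact 95% intervals. Bars for 3' UTRs (66.7% in C2C12, 15.7% in heart) stand above those for introns (23.3% and 5.26%).

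The distribution of clusters over gene parts was similar in the myoblast and heart lists, and a gene bound in one part in C2C12 was usually bound in that part in heart. In genes bound in both, 34.8% (33.4% to 36.2%) of C2C12 and 33.3% (32.7% to 34.0%) of heart clusters lay in 3' UTRs, and 60.1% (58.6% to 61.5%) and 58.8% (58.1% to 59.4%) in introns. Among the 633 genes bound in C2C12 in the 3' UTR and not in introns, 339 (53.6%) had the same pattern in heart, 259 (40.9%) had heart clusters in both parts, and 28 (4.42%) had them in introns and not the 3' UTR. Among the 1153 genes bound in C2C12 in introns and not the 3' UTR, 513 (44.5%) had the same pattern in heart, 534 (46.3%) had both and 88 (7.63%) had heart clusters in the 3' UTR and not in introns. Counted by part, 906 of the 1140 genes with C2C12 clusters in the 3' UTR (79.5%) and 1331 of the 1818 with C2C12 clusters in introns (73.2%) were bound in the same part in heart. Many genes had heart clusters in both parts, and the part of the longer heart list in this match was not tested. In genes of C2C12 alone coding exons held 6.99% (5.20% to 9.16%) of clusters, against 3.25% (2.75% to 3.82%) of C2C12 clusters in genes bound in both. The same contrast was present in heart, with 7.16% (6.83% to 7.51%) in genes of heart alone and 4.15% (3.88% to 4.44%) in genes bound in both.

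UGU, the core of the CELF1 recognition sequence, was searched on the sense strand of each cluster and counted with overlaps. It was present in 94.6% (93.5% to 95.6%) of C2C12 clusters that shared position with heart, in 81.7% (80.2% to 83.1%) of those in the same genes that did not, and in 83.8% (80.9% to 86.5%) of those in genes of C2C12 alone. UGUGU, which contains UGU as overlapping copies, was present in 43.6% (41.2% to 45.9%) of shared, 27.9% (26.2% to 29.6%) of unshared and 30.1% (26.7% to 33.7%) of C2C12-alone clusters. Shared clusters were wider, with a median of 43 nt against 37 nt, and wider clusters hold more letters. Among clusters 35 to 39 nt wide, a band chosen after seeing the data, UGU was present in 90.3% (87.9% to 92.4%) of shared and 78.9% (77.0% to 80.7%) of unshared C2C12 clusters. The difference was present within gene parts, where 93.6% (91.9% to 95.0%) of shared against 80.9% (77.3% to 84.2%) of unshared 3' UTR clusters and 96.6% (94.9% to 97.9%) against 83.1% (81.4% to 84.7%) of intron clusters held UGU. Heart clusters held UGU in 98.9% (98.3% to 99.4%) when shared, 98.5% (98.3% to 98.7%) when unshared and 98.1% (97.9% to 98.3%) in genes of heart alone, close to the ceiling of the measure. UGUGU was present in 54.0% (51.7% to 56.4%) of shared and 50.8% (50.0% to 51.5%) of unshared heart clusters. Within heart 3' UTRs the gap was wider, with UGU in 99.2% (98.5% to 99.7%) of shared and 97.5% (97.0% to 97.9%) of unshared clusters and UGUGU in 49.1% (46.0% to 52.1%) and 36.2% (34.9% to 37.4%), where median widths were 88 nt and 62 nt. Among heart clusters 35 to 39 nt wide UGU was not more frequent at shared positions, at 92.1% (85.0% to 96.5%) of 101 clusters. Among those of this width in unshared positions, 96.3% (95.5% to 97.1%) held UGU, above the 78.9% of the unshared C2C12 clusters of that width. For scale, when the 3' UTRs and introns of the genes bound in both were cut end to end into pieces of 37 nt, 58.1% of 138616 3' UTR pieces and 54.9% of 5380200 intron pieces held UGU, and 7.76% and 7.83% held UGUGU.

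Ext1 had the most shared positions. Ext1 (Entrez 14042, chr15:52895593-53177714, minus strand), which encodes a glycosyltransferase that builds heparan sulfate chains, had 37 C2C12 clusters, the most of any gene there, and 51 heart clusters. All of them lay in its longest intron of 236830 nt, and 15 of the 37 shared position. The gene was bound at many places along the unspliced transcript in each library, and most of the clusters of either list had no partner in the other.

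A paralog of CELF1 and one of its antagonists were among the leaders. Celf2 (Entrez 14007, chr2:6460751-7002348, minus), the closest paralog of CELF1, had 17 C2C12 and 93 heart clusters. Its 3' UTR held 6 of the 17 and 25 of the 93, every C2C12 cluster there overlapped a heart cluster, and 8 of the 17 clusters in all were shared. Mbnl1 (Entrez 56758, chr3:60277032-60433670, plus), for the splicing factor that CELF1 opposes at many exons, had 7 C2C12 and 40 heart clusters. Of these 7, 6 lay in introns and 6 were shared, while its 3' UTR held 11 heart clusters and 1 C2C12 cluster. Celf1 itself, named here after its values were seen, had 5 C2C12 and 21 heart clusters, with 3 of the 5 shared.

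The other genes with the most shared positions had most of their clusters in the 3' UTR. Nucks1 (Entrez 98415, chr1:133807035-133832898, plus), for a nuclear DNA-binding protein phosphorylated in the cell cycle, had 8 C2C12 and 17 heart clusters, all in the 3' UTR, and 7 of the 8 were shared. Prkar1a (Entrez 19084, chr11:109510719-109530970, plus), for a regulatory subunit of protein kinase A, had 8 C2C12 and 17 heart clusters, and 7 of the 8 were shared. Lamp2 (Entrez 16784, chrX:35754534-35809631, minus), for a lysosomal membrane protein, had 6 C2C12 clusters that were all shared, within 15 heart clusters. In these 3 genes all but 1 C2C12 cluster in Nucks1 and 1 in Prkar1a lay on a heart cluster.
Otud4, which encodes a deubiquitinase, had 7 C2C12 and 17 heart clusters, all in the 3' UTR, with 6 of the 7 shared. Septin11, for a GTP-binding filament protein, had 7 C2C12 and 10 heart clusters in the 3' UTR, again with 6 shared. Myadm, for a membrane protein of the MAL family, had 7 C2C12 and 9 heart clusters with 6 shared, and was the gene of this group with the highest C2C12 to heart ratio after scaling to the library totals (6.43). When at least 50% of each cluster had to overlap, shared clusters fell to 2 in Prkar1a, 1 in Lamp2 and 1 in Otud4.

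**Figure D3:**
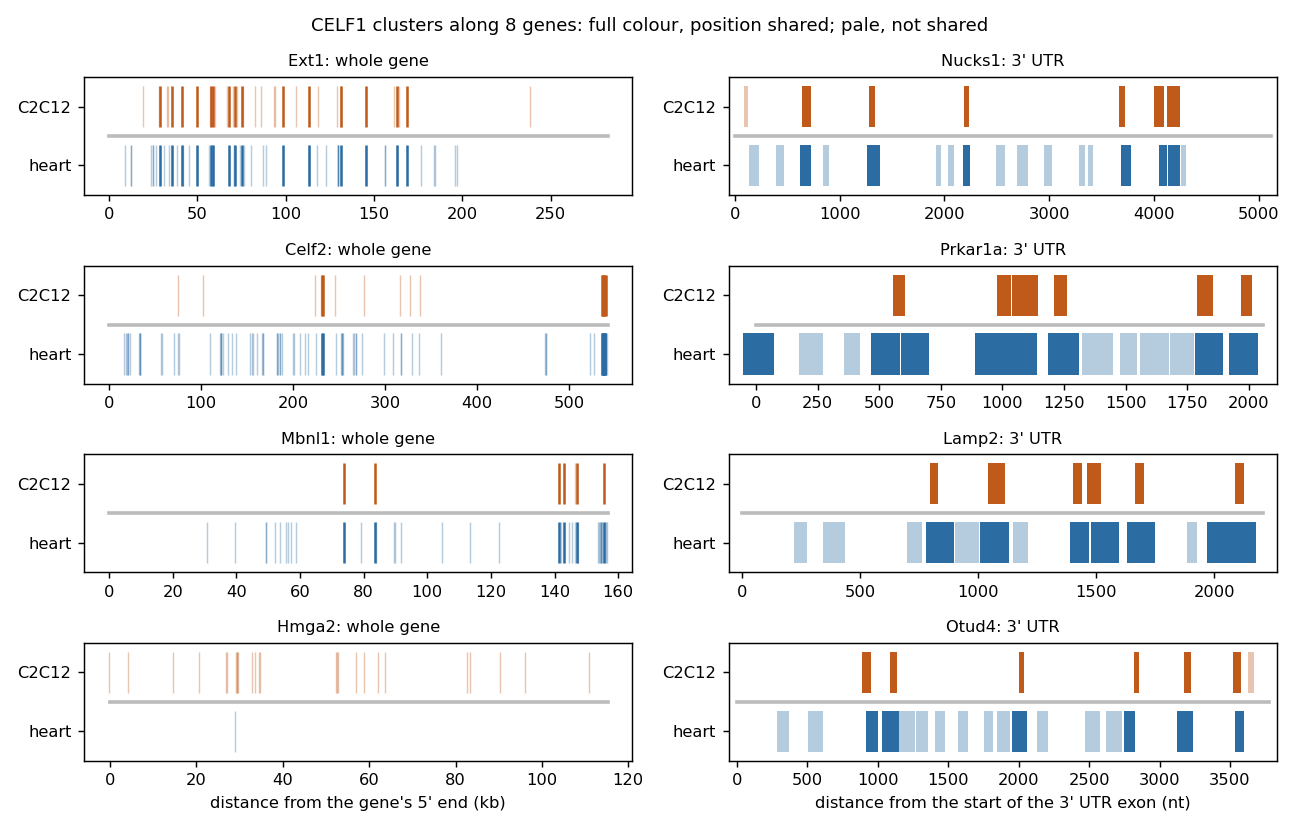
C2C12 (upper) and heart (lower) clusters along the whole gene for Ext1, Celf2, Mbnl1 and Hmga2, as distance from the 5' end in kb, and along the 3' UTR for Nucks1, Prkar1a, Lamp2 and Otud4, as distance from its start in nt, with shared positions in full colour and unshared ones pale. Hmga2 has 26 C2C12 clusters, 1 heart cluster and no shared position, whereas all 6 C2C12 clusters of Lamp2 overlap heart clusters.

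Other genes had many C2C12 clusters and at least 1 heart cluster without a shared position. Hmga2 (Entrez 15364, chr10:119798331-119913525, minus), for an architectural chromatin protein of embryonic and dividing cells, had 26 C2C12 clusters and 1 heart cluster. Of the 26, 25 lay in introns, 23 of them in the longest intron of 87963 nt, and the widest of them lay 396 nt from the heart cluster. Csgalnact1, for an enzyme that starts chondroitin sulfate chains, had 8 C2C12 clusters and 1 heart cluster, and Nr6a1, for an orphan nuclear receptor, had 8 and 2. Gli3, for a transcription factor of Hedgehog signalling, had 7 and 1. Heart clusters thus numbered 1 or 2 in these 4 genes. Actn1 and Pacsin2 were different, since heart clusters were not scarce. Actn1 (Entrez 109711, chr12:81268529-81361358, minus), for the alpha-actinin of non-muscle cells, had 5 of its 7 C2C12 clusters in the 3' UTR and 8 of its 9 heart clusters in introns. The remaining heart cluster lay in the 3' UTR, with the midpoint of 1 C2C12 cluster within 100 nt of its own. Pacsin2 (Entrez 23970, chr15:83206037-83295036, minus), for a membrane-bending protein of endocytosis, had 6 C2C12 clusters, all in introns, and 18 heart clusters, of which 13 lay in introns and 4 in the 3' UTR. Mrtfa, for a coactivator of serum response factor, had 7 C2C12 clusters and 2 heart clusters in introns, and Myof, which encodes the membrane repair and fusion protein myoferlin, had 6 in introns and 1 in a coding exon.

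Cluster numbers were also compared after scaling to 1000 clusters of each library. Of the 267 genes bound in both with at least 4 C2C12 clusters, 118 (44.2%) were at least 4-fold higher in C2C12, a share that the minimum on C2C12 clusters helps to set. The highest ratio belonged to Hmga2, at 5.08 C2C12 and 0.0237 heart clusters per 1000, a ratio of 215 with a counting interval from 35.3 to 8807. Csgalnact1 followed with 66.1 (8.86 to 2933), Gli3 with 57.8 (7.43 to 2607) and Myof with 49.6 (6.01 to 2280). Pdgfc, for a platelet-derived growth factor, had 6 C2C12 clusters and 1 heart cluster that shared position. Cdc45, for a component of the replicative helicase, had 5 and 1, also with 1 shared, and Rai14, for an actin-associated ankyrin repeat protein, and Soat1, for a cholesterol esterifying enzyme, had 5 and 1 with none shared. Each of these 8 genes had 1 heart cluster, so the order among them is the order of their C2C12 cluster numbers, and the intervals overlap.

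**Figure D4:**
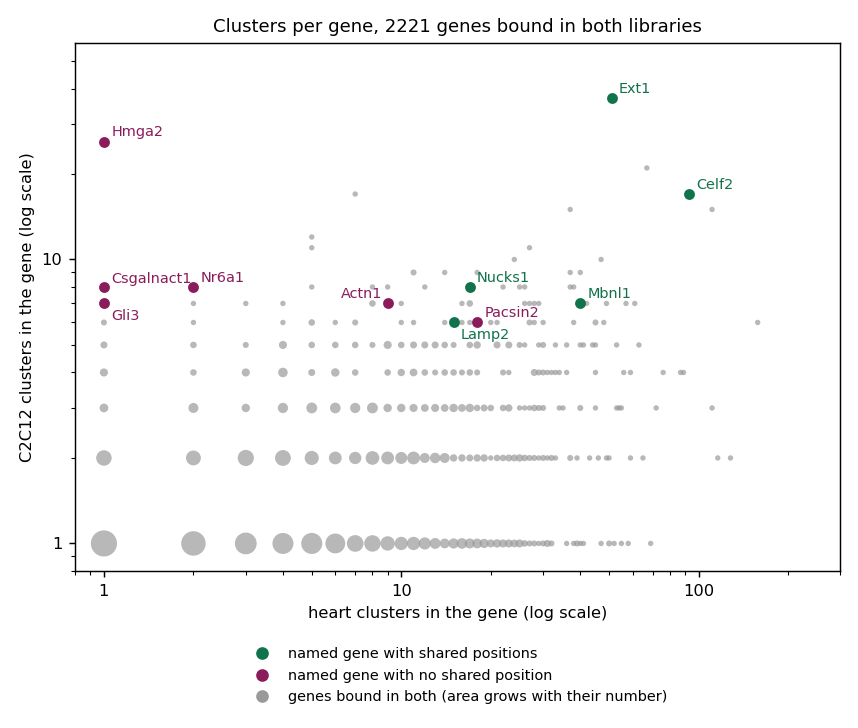
C2C12 against heart clusters for the 2221 genes bound in both libraries, on log axes, with grey areas that grow with the number of genes at a point and 11 named genes in colour. Ext1 (37 and 51) and Celf2 (17 and 93) lie at the upper right with shared positions, and Hmga2 (26 and 1) lies at the upper left with none.

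Diaph3, Bnc2, Glis3 and Sema5a led the genes bound in C2C12 alone. Diaph3 (Entrez 56419, chr14:87055174-87541031, minus), for a formin that nucleates actin filaments, had 10 C2C12 clusters, all in introns and spread from 68102 nt to 460024 nt from its 5' end. Bnc2, a zinc finger gene, had 9 in introns, and Glis3, for a zinc finger transcription factor, had 7 in introns. Sema5a, for a membrane-bound guidance cue, had 7, of which 1 lay in the 3' UTR. Anln, for the cytokinesis protein anillin, had 5. With 4 each followed Adgrl3, for an adhesion receptor, Alcam, for a cell adhesion molecule, Arhgap22, for a GTPase activating protein, and Basp1, for a membrane-attached cytoskeletal protein, which had 3 of its 4 in the 3' UTR. Across all 533 genes of this class the median was 1 cluster, so most of them rest on a single site.

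Ryr2, Cacna1c and Ttn led the genes bound in heart alone. Ryr2 (Entrez 20191, chr13:11645370-12199212, minus), for the calcium release channel of the sarcoplasmic reticulum, had 252 heart clusters, 239 in introns and 12 in coding exons, and none in C2C12. Cacna1c (Entrez 12288, chr6:118542314-119146249, minus), for the pore of the cardiac L-type calcium channel, had 223, of which 214 lay in introns. Ttn (Entrez 22138, chr2:76542037-76820604, minus), for the sarcomere spring titin, had 184, and 69 of them lay in coding exons, unlike Ryr2 and Cacna1c. Ctnna3, for the catenin of the intercalated disc, had 181, and Dmd, for dystrophin, had 150. Rora, for a nuclear receptor, had 104, and Zbtb16, for a zinc finger repressor, had 92. Nfia, for a nuclear factor I protein, had 84 with 27 in the 3' UTR, and Arhgap26, for a GTPase activating protein, had 83. The remaining gene of the 10, Fhod3, which encodes a formin of cardiac sarcomeres, had 90, of which 87 lay in introns.

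Gene lists by function were counted in the same way and set beside the 30.1% in both, 7.21% in C2C12 alone and 62.7% in heart alone over all bound genes. The cell cycle and proliferation list stood toward C2C12: of its 42 members 23 had a cluster, 9 in both, 9 in C2C12 alone (39.1%) and 5 in heart alone (21.7%). Its genes took 1.45% (1.14% to 1.81%) of C2C12 clusters and 0.182% (0.144% to 0.228%) of heart clusters, a ratio of 7.94, or 5.22 without Hmga2. The 9 in C2C12 alone were the mitotic and replication genes Ccnb1, Cdk2, Top2a, Mcm2, Mcm3, Mcm6, Bub1, Kif11 and Tpx2, with Top2a, for the topoisomerase that untangles sister DNA, at 4 clusters and the others at 1 or 2. The D-type cyclins, which start the cycle, differed among themselves. Ccnd1 had 11 C2C12 clusters, 10 in the 3' UTR, and 5 heart clusters, all in the 3' UTR, with 4 of the 11 shared. Ccnd2 had 1 C2C12 cluster and 18 heart clusters, all in the 3' UTR, and Ccnd3 had none and 8.

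The lists of contractile and electrical genes took a larger share of heart clusters than of C2C12 clusters. Of the 32 sarcomere genes, 29 had a cluster, 6 in both, 0 in C2C12 alone and 23 in heart alone (79.3%, against 62.7% of all bound genes). With 29 genes, 0 in C2C12 alone lies near the 7.21% of all bound genes. The sarcomere list took 0.332% (0.194% to 0.532%) of C2C12 and 1.57% (1.45% to 1.69%) of heart clusters. The 6 in both included the Z-disc and actin linkers Pdlim5 (7 C2C12 and 61 heart clusters, 5 shared), Palld (4 and 76, 2 shared) and Ablim1 (3 and 72, 3 shared), which are not restricted to striated muscle. The rest were Tpm1 (1 and 15), Myom2 (1 and 25) and Nebl (1 and 19), each with its 1 C2C12 cluster in an intron and not shared. Of the 50 ion channel and calcium handling genes, 47 had a cluster, 14 in both (29.8%), 0 in C2C12 alone and 33 in heart alone (70.2%). The shares in both and in heart alone lay near the 30.1% and 62.7% of all bound genes. This list took 0.762% (0.543% to 1.04%) of C2C12 and 3.58% (3.40% to 3.76%) of heart clusters. Pde4d, for a cAMP phosphodiesterase, had 6 and 158 clusters, all in introns, with 1 shared, and Slc8a1, for the sodium-calcium exchanger, had 3 and 111 with 2 shared. Oxidative phosphorylation genes were bound in heart alone in 28 of 35 cases (80.0%, against 62.7% of all bound genes). Their clusters were few, with 8 in C2C12 and 142 in heart.

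Several lists had a higher share of genes bound in both than all genes together. The share in both was 69.5% of the 59 actin and microtubule cytoskeleton genes with a cluster, 60.0% of 60 RNA-binding protein genes, 56.1% of 41 matrix and integrin genes, 54.1% of 61 chromatin regulators and 47.5% of 59 growth factor signalling genes, against 30.1% overall. Myh9, for the heavy chain of non-muscle myosin, had 9 C2C12 and 14 heart clusters with 5 shared, and Clasp1, for a microtubule plus-end protein, had 5 and 63 with 4 shared. Among RNA-binding proteins, 36 were bound in both, 4 in C2C12 alone and 20 in heart alone. Rbfox2, for a splicing factor, had 9 and 37 clusters with 3 shared, whereas its paralog Rbfox1 had none in C2C12 and 51 in heart. Qk, for the splicing and stability factor quaking, had 2 C2C12 clusters, both shared, and 65 in heart, and Msi2, for a translational regulator, had 1 and 69 with none shared.
Matrix and integrin genes took 1.43% (1.12% to 1.79%) of C2C12 and 0.549% (0.481% to 0.624%) of heart clusters, a ratio of 2.60 (1.97 to 3.40). Among them, Gpc6, for a heparan sulfate proteoglycan, had 9 and 18 clusters with 2 shared, and Cd44, for the hyaluronan receptor, had 6 and 2 with 1 shared, 5 of the 6 in the 3' UTR. Cytosolic ribosomal protein genes had few clusters, 11 in C2C12 and 12 in heart, and 6 of the 12 genes with a cluster were bound in C2C12 alone (50.0%). The counts of these genes are uncertain where reads also match processed copies, and the part of this in the result was not tested.

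Myogenic regulators were bound in both libraries more often than all genes, and the lists of microRNA silencing and translation factors lay near the shares of all genes, 30.1% in both, 7.21% in C2C12 alone and 62.7% in heart alone. Of 16 myogenic regulators with a cluster, 9 were bound in both (56.2%), 3 in C2C12 alone and 4 in heart alone. Myod1, which drives the myoblast fate, had 2 C2C12 clusters in its 3' UTR and none in heart. Mef2a, for a muscle transcription factor, had 2 and 24 clusters with 1 shared, Tcf4 had 5 and 44 with 3 shared, and Tcf12, which encodes a partner of MyoD, had 6 and 18 with none shared. Sox6, for a regulator of fibre type, had none and 68. Cardiac transcription factor genes were bound in both in 12 of 30 cases (40.0%), in C2C12 alone in 1 and in heart alone in 17 (56.7%), with Zfpm2, for a GATA cofactor, at 7 C2C12 and 49 heart clusters, 5 of them shared, and Tead1, for a Hippo pathway factor, at 7 and 42, also with 5 shared. Of 40 genes of microRNA silencing and deadenylation, 15 were bound in both (37.5%), 1 in C2C12 alone and 24 in heart alone (60.0%). Tnrc6b, for a partner of Argonaute, had 6 and 45 clusters, of which 5 and 35 lay in the 3' UTR, with 4 of the 6 shared, and Pan3, for a deadenylase subunit, had 2 and 22 with both of the 2 shared. Translation factor genes were bound in both in 11 of 32 cases (34.4%), and Eif4g2, for a non-canonical initiation factor, had 5 C2C12 and 11 heart clusters with 3 shared. In the list of immediate early and GU-rich-element messages 4 of 17 genes were bound in both, among them Fosl2 with 4 and 11 clusters, 3 shared, and Sgk1 and Rhob with 1 and 5 each, the 1 shared.

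**Figure D5:**
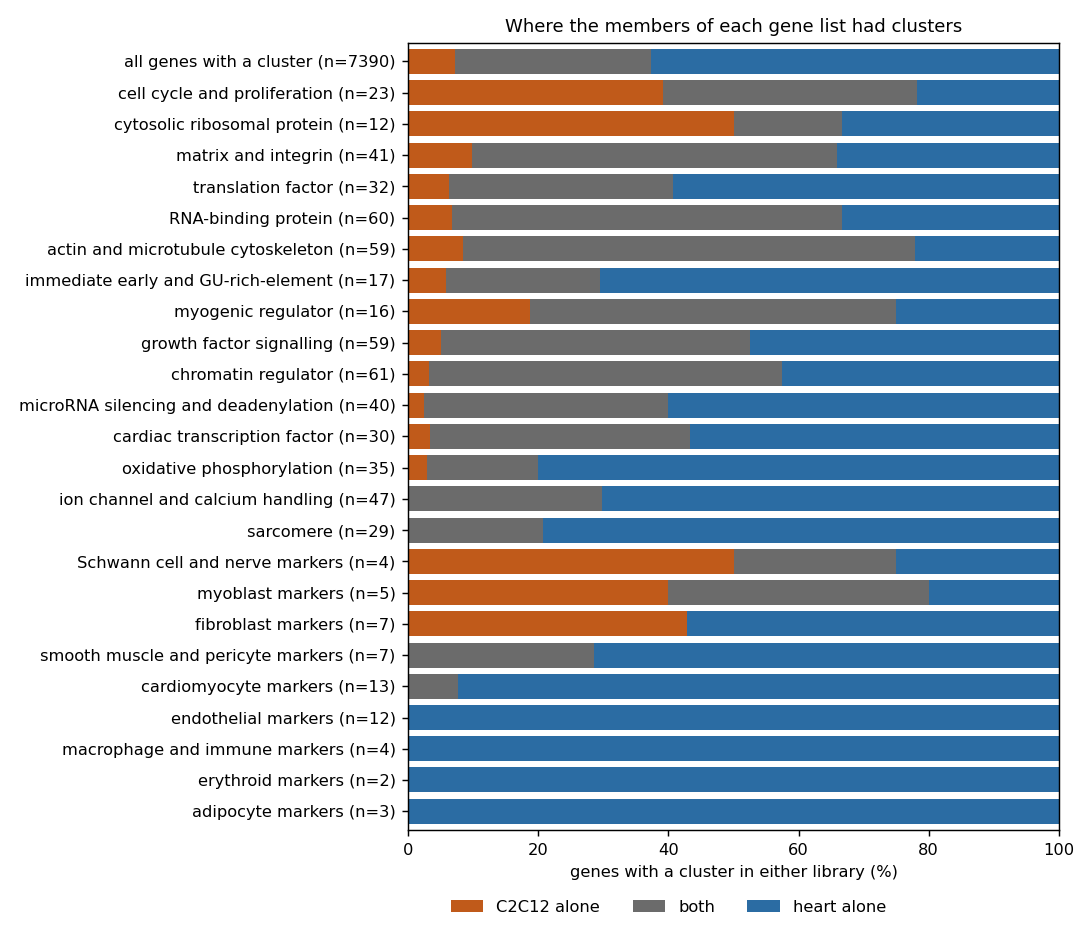
Percent of the members of each gene list, among those with a cluster in either library, that were bound in C2C12 alone, in both or in heart alone, with all 7390 bound genes as the top bar. The cell cycle list has 39.1% of its 23 genes in C2C12 alone, against 7.21% of all bound genes. The sarcomere list has 79.3% of its 29 genes in heart alone, against 62.7% of all bound genes.

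Cardiomyocyte markers were bound in heart and nearly absent from C2C12, whereas the myoblast markers were mostly without clusters. Of 14 cardiomyocyte markers 13 had a cluster, 12 of them in heart alone, and they took 632 heart clusters against 1 in C2C12, in Corin. Of 12 myoblast markers 5 had a cluster. Myod1 and Chrna1, for a subunit of the muscle acetylcholine receptor, were bound in C2C12 alone, Ncam1 and Itga7 in both and Des in heart alone, whereas Myf5, Pax7 and Myog had no cluster in either library. The heart library also held markers of other cells of the ventricle that had no C2C12 cluster: 12 of 14 endothelial markers with 85 clusters, such as Flt1 with 21 and Erg with 20, 4 of 12 macrophage and immune markers with 10, 3 of 8 adipocyte markers with 24, 17 of them in Lpl, which cardiomyocytes also express, and 2 of 8 erythroid markers with 4. Of all bound genes 62.7% were in heart alone. The immune, adipocyte and erythroid lists, with 4, 3 and 2 genes with a cluster, are too small to set apart from that share. Fibroblast markers were split, with Col1a2, Col3a1 and Vim in C2C12 alone and Dcn and Gsn among the 4 in heart alone. Of 7 smooth muscle and pericyte markers with a cluster, 5 were bound in heart alone (71.4%, near the share of all bound genes), such as Abcc9 with 25 clusters. Acta2 and Notch3 were bound in both. Of the Schwann cell and nerve markers Mbp and Prx had 1 C2C12 cluster each, while Sox10 had none in either library. The ventricle holds a mixture of cell types, in which fewer cells of a type and less RNA per cell cannot be told apart. The part of cell mixture in the genes of heart alone was not tested.

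Chromosome 15 held more of the C2C12 clusters than of the heart clusters. It took 8.45% (7.70% to 9.24%) of C2C12 and 4.07% (3.89% to 4.27%) of heart clusters, a ratio of 2.07 (1.86 to 2.30), whereas the ratio lay between 0.708 and 1.24 on the other 18 autosomes and the X. Ext1, Mrtfa, Pacsin2, Sema5a, Basp1 and Rai14 lie on this chromosome. Its C2C12 clusters shared position in 38.3% of cases in genes bound in both, near the 39.1% of all, and leaving the chromosome out gave 39.2%.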

How the data were processed

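CELF1 CLIP-seq clusters of C2C12 and heart ventricle were used, 1 library each. The muscle library was not used here. As the methods of the study describe, PCR duplicates were removed with a 2-nt barcode, reads with a unique match were mapped to mm9 with Bowtie and TopHat, and clusters were called with a Poisson model that took in gene expression and length. The sources used here give no tool versions. The deposited files list cluster start, end, strand and Entrez gene without read counts, so the number of reads behind a cluster is unknown. A deposited score column, constant at 1e-06, was not used. Clusters listed under more than 1 gene (30 in C2C12, 396 in heart) were kept under each.

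Positions are 1-based. RefSeq gave symbols for 7384 of 7390 genes, and GENCODE vM1 on NCBIM37 gave gene parts for 7338 (99.3%), matched by symbol. A cluster was placed by its midpoint in the 3' UTR, coding exon, 5' UTR or intron, in that order. Where the annotated 3' UTR is short, as in Slc8a1, 3' UTR clusters are undercounted. Thinned values are hypergeometric expectations in which every heart cluster was equally likely to be kept, whatever its strength. They are not the overlap that a less sensitive heart library would give. Ratio intervals are exact binomial. No test between groups was made. Named genes were, by rule, the 10 with the most shared C2C12 clusters, the 8 with the most C2C12 clusters and none shared, the 10 leaders of each library alone, the 8 highest ratios with at least 4 C2C12 clusters, and the leaders of 15 function and 9 marker lists. A few genes and 1 sequence window that these rules name are not reported here. Members and lists were chosen with earlier results of these data known, and other genes were named as counted members of a list after their values were seen. Scripts, tested on simulated data, used samtools 1.23.1 and Python 3.11.15 with scipy 1.17.1, pysam 0.24.0, numpy 2.4.6, matplotlib 3.10.9 and pandas 2.3.3.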

Additional observations from a re-analysis of the deposited data

How the results depend on the processing

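Requiring 2 clusters of a library for a bound gene left 932 genes in both and 168 in C2C12 alone, and moved sharing to 42.7% of C2C12 clusters, 10.9% of heart clusters, 69.8% of C2C12 3' UTR clusters and 26.9% of C2C12 intron clusters. An overlap of at least 50% of both clusters moved these 4 shares to 21.3%, 4.66%, 33.3% and 14.3%, with UGU in 97.6% of shared and 83.8% of unshared C2C12 clusters. Midpoints within 100 nt gave 43.5%, 10.9%, 73.1% and 26.5%. Heart thinned to the C2C12 cluster number gave an expected 1185 genes in both, 1569 in C2C12 alone and 1620 in heart alone, and sharing of 8.30% for all, 15.3% for 3' UTR and 4.59% for intron clusters of C2C12. Placing introns before exons gave 25.6% for C2C12 intron clusters. Chosen after seeing the data, clusters at least 50 nt wide gave 623 genes in both, 119 in C2C12 alone and sharing of 65.4% of C2C12 and 11.5% of heart clusters, and clusters 35 to 39 nt wide gave UGU in 90.3% of shared and 78.9% of unshared C2C12 clusters. In every alternative that gave both values, C2C12 3' UTR clusters shared position more often than intron clusters, and shared C2C12 clusters held UGU more often than unshared ones. The other 27 values, the width minimum of 30 nt (narrower than every cluster) and the removal of chromosome 15 among them, stayed within the counting interval of the reported share or within 1.5 times the reported count. No paired analysis was possible because each group is 1 library and the labels give no replicate numbers. Reads behind a cluster are unknown, so binding below the calling limit was not detectable.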

Other observations

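Gene families taken by symbol, chosen after their values were seen, differed in where their members were bound. No potassium channel gene (symbols starting with Kcn) of 27 with a cluster was bound in both libraries, against 30.1% of all genes. Of the 27, 25 were in heart alone (92.6%, against 62.7% of all genes), with 202 heart clusters. The 2 in C2C12 alone (7.41%) lay near the 7.21% of all genes. The 9 semaphorin genes with a cluster also had none in both, against 30.1% over all genes. Of these 9 genes, 3 were in C2C12 alone (33.3%, against 7.21%) and 6 in heart alone (66.7%, near the 62.7% of all genes). Kinesin genes, for motors on microtubules, were bound in both in 9 of 22 cases (40.9%, against 30.1% of all genes). They were bound in C2C12 alone in 6 (27.3%, against 7.21% of all genes). Rab GTPase genes, for regulators of vesicle traffic, were bound in both in 13 of 27 cases (48.1%, against 30.1% of all genes). Of their 25 C2C12 clusters in those genes, 16 shared position with heart (64.0%, against 39.1% of all). Ubiquitin-specific protease genes were bound in both in 15 of 33 cases (45.5%, against 30.1% of all genes). No member was bound in C2C12 alone, which with 33 genes lies near the 7.21% of all genes. Zinc finger protein genes with Zfp symbols were bound in heart alone in 98 of 135 cases (72.6%, against 62.7% of all genes). They were bound in both in 23 (17.0%) and in C2C12 alone in 14 (10.4%, against 7.21%). Phosphodiesterase genes were bound in both in 2 of 14 cases (14.3%, against 30.1% of all genes). They were bound in C2C12 alone in 1 (7.14%, near the 7.21% of all genes) and in heart alone in 11 (78.6%, against 62.7%). They had 370 heart and 8 C2C12 clusters, of which Pde4d held 158 and 6.

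Several genes outside the naming rules had many C2C12 clusters. Runx1, for a transcription factor of blood and connective tissue, had 17 C2C12 clusters, 7 heart clusters and 1 shared position. Cdh13, for a cadherin anchored in the membrane by a lipid, had 15 C2C12 and 111 heart clusters with 5 shared. Asap1, for a GTPase activating protein on chromosome 15, had 15 and 37 with 6 shared. Msn, for the membrane-cytoskeleton linker moesin, had 8 and 9 clusters, of which 7 and 9 lay in the 3' UTR, with 5 of the 8 shared.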
